A study of Mus musculus with 8 samples.

Results

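The thyroid hormone system of the neonatal mouse heart muscle cell was followed through 8 genes, chosen by symbol for their role: the receptors Thra and Thrb, their dimer partners Rxra, Rxrb and Rxrg, the activating deiodinase Dio2, the transporter Slc16a10 and the corepressor Ncor1. All 8 were found among the 48440 entries of the count table, and all 8 passed the filter on low counts, which left 13771 genes to test. RNA came from purified cardiomyocytes of C57BL6/J mice on postnatal day 2, with no treatment or genetic change named in the labels. A male and a female pup from each of 4 litters gave 8 libraries, 4 per sex, so that the sexes can be compared with 4 libraries each and the litters with 2 libraries each. Each library is 1 heart, and the labels do not say how the cells were purified or whether the litters were handled on the same day, so a difference between litters and one between days of preparation cannot be told apart.

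Thyroid hormone enters cells through membrane transporters, among them the monocarboxylate transporters to which Slc16a10 belongs, a carrier that also moves aromatic amino acids. The prohormone T4 is turned into the active hormone T3 by type 2 deiodinase, the product of Dio2. T3 then binds the nuclear receptors encoded by Thra and Thrb, which sit on DNA mostly as heterodimers with a retinoid X receptor (RXR). Without hormone these receptors hold the corepressor NCoR1, and with hormone they exchange it for coactivators. In the rodent heart, rising T3 after birth is known for the exchange of slow for fast myosin heavy chain and for higher expression of the calcium pump gene Atp2a2.

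Library totals ran from 14226342 counts in the female of litter 3 to 24910243 in the male of litter 1. Xist had 15865 to 31331 counts in the female libraries and 15 to 124 in the male libraries, and Ddx3y had 1121 to 1694 counts in males and 1 to 3 in females, so every library had the pattern of its labelled sex. The 6 cardiomyocyte markers summed to between 50035 and 66323 CPM, the unit that scales counts to the library total. The 7 fibroblast markers summed to between 32.8 and 245 CPM, the 6 endothelial markers to between 11.9 and 123 CPM, and the 4 macrophage markers to between 2.86 and 8.65 CPM. No marker of these lists was at 0 in all 8 libraries. Litter 3 had the lowest sums of cardiomyocyte, fibroblast and mural markers in both of its libraries, and these values are given beside the results on that litter.

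Thra was by far the most abundant of the 8 transcripts relative to its length and Thrb the least. Levels of different genes were set side by side as CPM per kilobase of annotated exon. On this scale Thra had 52.0 ± 5.16 (SD, n = 8), which placed it above 94.98% of 13314 tested genes with a length. Rxrb followed at 14.9 ± 1.36, Rxra at 12.2 ± 1.65 and Ncor1 at 11.9 ± 1.18. Slc16a10 stood at 5.21 ± 0.375, close to the median tested gene at 4.08. Rxrg had 1.77 ± 0.720, Dio2 1.20 ± 0.232 and Thrb 0.641 ± 0.146, the last above 16.6% of tested genes. The ranges over the 8 libraries did not overlap between Thra and Rxrb, between Ncor1 and Slc16a10 or between Slc16a10 and Rxrg. They overlapped between all other neighbours in this order, so Rxrb, Rxra and Ncor1 were not separated as 3 levels. Rxrb was nevertheless above Rxra in 7 of 8 libraries, and Dio2 was above Thrb in 8 of 8. With the longest annotated transcript as the length, Ncor1 at 16.9 moved above Rxra at 13.6, and the other positions stayed as they were.

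**Figure D1:**
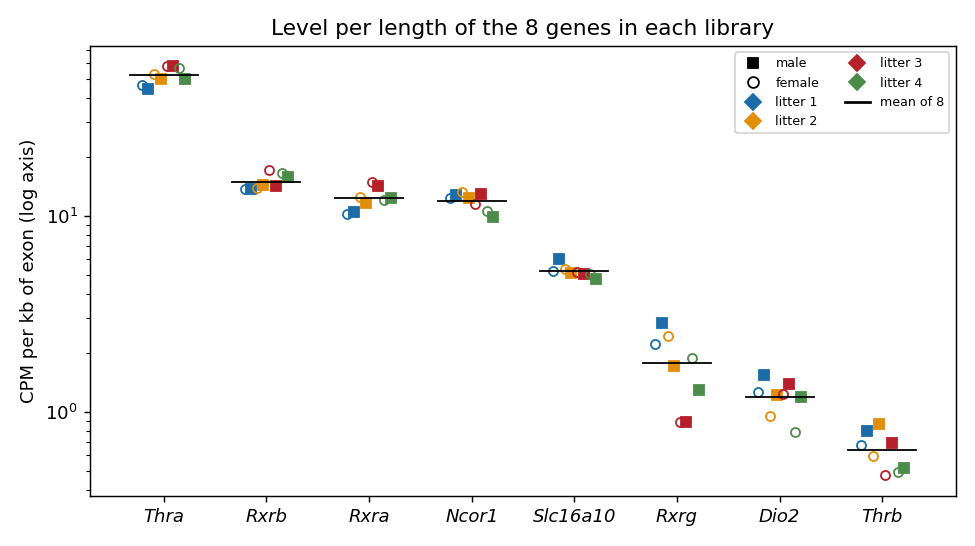
Level of each of the 8 genes in CPM per kilobase of annotated exon (log axis), 1 point per library, with squares for males, open circles for females, colours for litters and a line at the mean of 8. Thra lies between 44.1 and 57.8 in every library and Thrb between 0.475 and 0.870, while Rxrg spreads most, with both libraries of litter 3 at the bottom.

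Receptor RNA was almost entirely that of Thra. Thra made up 98.2% to 99.2% of the summed length-scaled level of both receptor genes in the 8 libraries, and the ratio of Thra to Thrb ran from 54.9 in the male of litter 1 to 122 in the female of litter 3, with a median of 86.3. With the longest transcript as the length the ratio ran from 86.5 to 192, with a median of 136. Thra is known to be spliced into a hormone-binding form and a form that does not bind T3, and counts per gene cannot divide them. Among the RXR genes, Rxrb held 51.4% ± 2.28 of the summed level, Rxra 42.3% ± 3.41 and Rxrg 6.28% ± 2.82 (SD, n = 8). Relative to its mean the share of Rxrg varied most, at 10.6% and 8.53% in the male and female of litter 1 and 3.03% and 2.71% in those of litter 3. With the longest transcript as the length the shares of Rxrb, Rxra and Rxrg were 59.1%, 35.8% and 5.19%.

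Thra lies on chr11:98740638-98769006, plus strand, in the mm10 build. In TMM-scaled CPM, where library totals are corrected for composition, used for all comparisons between libraries, Thra had 203, 228, 260.3 and 243 in the males of litters 1 to 4 and 215, 241, 261 and 269 in the females. Both libraries of litter 1 were the lowest of their sex, and the female of every litter was at or above the male. The litter means were 209 ± 8.21, 234 ± 9.44, 261 ± 0.425 and 256 ± 18.1 (SD, n = 2), a range of 0.32 on the log2 scale between the fitted litters (edgeR adjusted p = 0.0132). Against the mean of the other litters on the log2 scale Thra stood at -0.26 in litter 1 (SE 0.06, adjusted p = 0.0118) and at 0.17 in litter 3 (SE 0.06, edgeR adjusted p = 0.0400). The 3' end of Thra runs into Nr1d1, the gene of the circadian repressor REV-ERBα on the opposite strand. They share 263 exon bases, or 5.70% of the exon length of Thra, and whether counting used the strand is not given in the sources used here, so reads there cannot be assigned with certainty. Nr1d1 itself had 594 to 1131 counts and did not pass the litter test (log2 range 0.35, adjusted p = 0.142).

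Thrb, on chr14:17660261-18038090, plus strand, was counted 50 to 153 times per library. It had 5.94, 6.36, 5.03 and 4.02 TMM-scaled CPM in the males of litters 1 to 4 and 5.02, 4.32, 3.44 and 3.78 in the females. The male was above the female in all 4 litters, by 0.24, 0.55, 0.54 and 0.09 on the log2 scale, yet the sexes overlapped, since the female of litter 1 was above the male of litter 4. Its range between litters, 0.48 on the log2 scale, did not pass the test (adjusted p = 0.149).

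Of the 8 genes, Thra, Rxra and Rxrg passed the litter test, 3 of 8 or 37.5%, while 32.1% of all tested genes did, so the share was near the background. The same 3 passed in the contrast of litter 1 with the other litters, where 13.3% of all genes passed, and in that of litter 3, where 28.3% did. In litter 2 no member passed against a background of 4.18%, with 0 at an unadjusted p under 0.05 in edgeR (17.9% of all genes). In litter 4 none passed against 10.5%, with 3 at an unadjusted p under 0.05 (27.6% of all genes). These 4 contrasts share libraries. Background calls of litter 3 split into 1871 higher and 2032 lower, and into 2419 and 1698 with library size alone as the scaling. Those of litter 4 split into 648 and 799, and into 262 and 1501.

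The RXR genes moved in opposite directions between litters, with Rxra high and Rxrg low in litter 3 and the reverse in litter 1. Rxra, on chr2:27676440-27762957, plus strand, had 57.1, 62.4, 76.1 and 70.4 TMM-scaled CPM in the males of litters 1 to 4 and 55.4, 66.7, 79.5 and 67.6 in the females. Both libraries of litter 3 were above the other 6, which lay between 55.4 and 70.4. Its log2 fold change was 0.30 (SE 0.06, adjusted p = 0.00406) in litter 3 and -0.32 (SE 0.06, adjusted p = 0.00750) in litter 1, and the litter test gave a log2 range of 0.47 (adjusted p = 0.00511).

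Rxrg, on chr1:167598384-167639623, plus strand, was counted 29 to 163 times per library and had the largest change of the 8 genes. It had 6.54, 3.91, 2.00 and 3.13 TMM-scaled CPM in the males of litters 1 to 4 and 5.10, 5.53, 2.00 and 4.45 in the females. Both libraries of litter 3 were below the other 6, which lay between 3.13 and 6.54. The log2 fold change was -1.22 in litter 3 (SE 0.23, adjusted p = 0.00256) and 0.83 in litter 1 (SE 0.19, adjusted p = 0.0145), with a log2 range of 1.54 between litters (adjusted p = 0.00570). Rxrg is the RXR gene known for its restricted expression in muscle, heart and brain, while Rxra and Rxrb are expressed widely.

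Rxrb, on chr17:34031812-34038399, plus strand, had 54.1, 56.3, 55.1 and 65.9 TMM-scaled CPM in the males and 54.3, 53.8, 66.2 and 67.6 in the females. Both libraries of litter 4 and the female of litter 3 were high and the other 5 lay within 53.8 to 56.3. It missed the threshold in the litter test (log2 range 0.30, adjusted p = 0.0560) and in the contrast of litter 4 (0.24, SE 0.07, adjusted p = 0.0531). Without a filter on low counts it passed both, at 0.0252 and 0.0289. With litter 1, 2, 3 or 4 left out the litter test gave edgeR adjusted p-values of 0.122, 0.0472, 0.0361 and 0.327. The log2 range was 0.16 without litter 4.

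Several of these calls were lost when a library or litter was left out. Thra no longer passed the litter test without either library of litter 1 (adjusted p = 0.109 each, with log2 ranges of 0.32 as before) or without both (0.300, log2 range 0.15). Its contrast in litter 1 was lost without either library of that litter (0.186 without the male, 0.193 without the female), while its log2 fold change stayed at -0.26 in both. Its contrast in litter 3 held in only 2 of 11 fits, those without the female of litter 4 and without litter 4, with adjusted p from 0.0580 to 0.381 in the others and a log2 fold change of 0.09 without litter 1. Without a filter on low counts it was 0.0507. Rxra lost the litter test without litter 1 (0.0872, log2 range 0.27) or litter 3 (0.0656, 0.30). Its contrast in litter 3 was lost without the female of litter 3 (0.0764) or without litter 1 (0.0534), and its contrast in litter 1 without that litter's male (0.0962) or female (0.196) or without litter 3 (0.0583). Rxrg lost the litter test without litter 3 (0.181, log2 range 0.62), and its contrast in litter 1 without the male of litter 1 (log2 fold change 0.44, adjusted p = 0.4001) or litter 3 (0.47, 0.168). Its contrast in litter 3 passed in all 11 fits that left out a library or a litter, with an adjusted p of 0.0322 at most. A fit without 1 library of a litter assumes that the library left varies like the others.

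Markers of other cell types also differed in litter 3, where 14.8% of all genes were lower and 13.6% higher. They were read in litter 1 as well, where 13.3% of all genes passed. In the male and female of litter 3 the fibroblast markers summed to 52.7 and 32.8 CPM against 104 to 245 CPM in the other 6, and 6 of 7 tested markers were lower. Mural markers summed to 461 and 429 CPM against 876 to 1073 CPM, with 3 of 5 lower. That sum was mostly Acta2, which had 8508 and 4991 counts in litter 3 and 17887 to 21459 in the others. Endothelial markers summed to 12.4 and 13.9 CPM against 11.9 to 123 CPM, with 5 of 6 lower. The 6 cardiomyocyte markers summed to 51583 and 50035 CPM against 55359 to 66323 CPM, with 2 of 6 lower, Myh6 among them. Their median log2 fold change was -0.02. The 5 atrial markers summed to 1333 and 1635 CPM against 212 to 817 CPM, with 1 higher, 1 lower and a median log2 fold change of -0.85. That sum was mostly Nppa, which had 27098 and 21960 counts in litter 3 and 3960 to 11417 in the others. The 4 ventricular markers summed to 14325 and 15041 CPM against 16959 to 19682 CPM, with 2 higher, 2 lower and a median log2 fold change of -0.03. The 4 erythroid markers summed to 415 and 147 CPM against 78.3 to 195 CPM, with 1 higher and a median log2 fold change of 0.92. In litter 1 the fibroblast markers summed to 166 and 111 CPM in the male and female, with 3 of 7 higher. Of its 5 mural markers 1 was higher and 2 lower, and of its 4 ventricular markers 1 was higher and 2 lower. Only 1 of 6 cardiomyocyte markers was higher and 1 of 5 atrial markers lower, against the 13.3% of all genes that passed. The part of these shifts in the Thra, Rxra and Rxrg values was not tested, and in bulk RNA fewer cells of a type and less RNA per cell cannot be told apart.

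**Figure D2:**
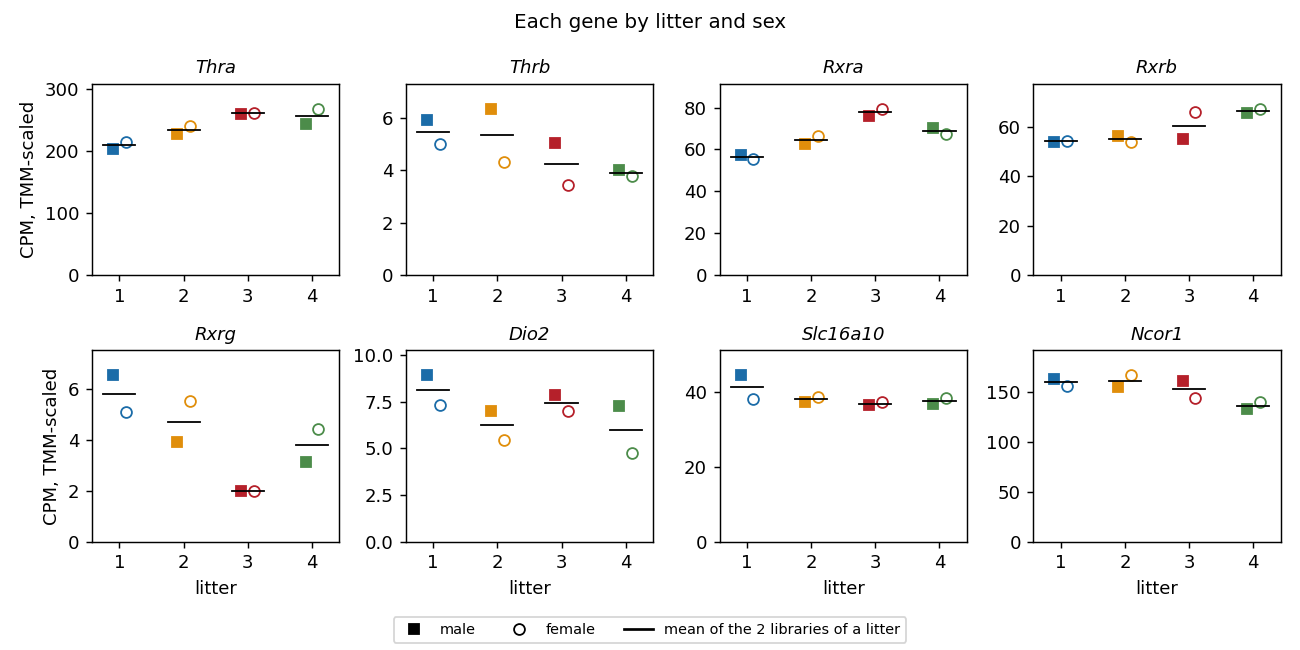
TMM-scaled CPM of each of the 8 genes by litter, with filled squares for males, open circles for females and a line at the mean of both libraries of a litter; each axis starts at 0. Rxra is highest and Rxrg lowest in both libraries of litter 3, Thra is lowest in litter 1, and Slc16a10 is nearly level apart from the male of litter 1.

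Promoter windows are printed for Rxra and Rxrg, the 2 genes whose libraries of litter 3 stood apart from all others, and for Thrb. They run from 250 bases before to 50 after a RefSeq transcript start on GRCm38.p6, the assembly of mm10, 5' to 3' on the plus strand, and both starts of each of the 3 genes in the table are shown. The half-site AGGTCA, the core of thyroid hormone and RXR response elements, was searched on both strands (TGACCT when read on the opposite strand) and stands in capitals. It was found in 3 of 12 windows of 7 members, namely those of the downstream start of Rxra, the downstream start of Rxrg and the upstream start of Thrb, and in 16.3% of all 32851 windows. Thra is not among the 7. The match in Rxrg begins 88 bases before the start, those in Rxra 87 and 48 bases before, the first of these on the opposite strand, and that in Thrb 184 bases before. A direct repeat of the half-site with a spacer of 4 bases was in 0 of the 12 windows and in 5 of 32851. A match says only that these letters are there.
Rxra, upstream start, chr2:27676951-27677250: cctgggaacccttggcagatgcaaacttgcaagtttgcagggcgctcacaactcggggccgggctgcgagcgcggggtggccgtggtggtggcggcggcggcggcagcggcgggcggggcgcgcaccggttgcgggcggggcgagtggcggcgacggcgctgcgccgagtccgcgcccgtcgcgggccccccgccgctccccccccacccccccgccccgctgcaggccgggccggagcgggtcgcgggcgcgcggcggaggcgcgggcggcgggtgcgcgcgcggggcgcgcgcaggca
Rxra, downstream start, chr2:27709042-27709341: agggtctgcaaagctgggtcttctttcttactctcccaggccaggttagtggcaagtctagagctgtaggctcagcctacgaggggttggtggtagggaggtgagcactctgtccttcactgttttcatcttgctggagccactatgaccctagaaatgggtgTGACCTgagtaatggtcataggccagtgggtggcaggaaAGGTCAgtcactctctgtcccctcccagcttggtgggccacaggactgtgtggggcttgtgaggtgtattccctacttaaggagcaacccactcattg
Rxrg, downstream start, chr1:167618015-167618314: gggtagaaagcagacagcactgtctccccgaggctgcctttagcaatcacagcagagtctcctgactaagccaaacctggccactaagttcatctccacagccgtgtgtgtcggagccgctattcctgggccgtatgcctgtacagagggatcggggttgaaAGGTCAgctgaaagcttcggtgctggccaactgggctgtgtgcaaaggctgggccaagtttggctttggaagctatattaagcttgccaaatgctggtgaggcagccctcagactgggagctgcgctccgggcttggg
Rxrg, upstream start, chr1:167598112-167598411: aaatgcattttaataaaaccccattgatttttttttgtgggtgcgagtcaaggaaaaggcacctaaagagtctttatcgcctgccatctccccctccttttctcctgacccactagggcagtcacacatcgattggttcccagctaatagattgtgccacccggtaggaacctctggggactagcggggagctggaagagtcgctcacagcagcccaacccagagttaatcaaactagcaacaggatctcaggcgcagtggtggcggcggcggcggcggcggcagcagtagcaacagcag
Thrb, upstream start, chr14:17660710-17661009: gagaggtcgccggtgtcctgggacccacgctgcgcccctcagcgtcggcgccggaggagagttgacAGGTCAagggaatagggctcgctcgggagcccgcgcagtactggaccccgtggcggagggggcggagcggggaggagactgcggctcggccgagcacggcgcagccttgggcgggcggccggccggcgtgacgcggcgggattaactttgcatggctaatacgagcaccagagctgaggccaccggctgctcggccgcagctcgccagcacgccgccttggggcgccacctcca
Thrb, downstream start, chr14:17981394-17981693: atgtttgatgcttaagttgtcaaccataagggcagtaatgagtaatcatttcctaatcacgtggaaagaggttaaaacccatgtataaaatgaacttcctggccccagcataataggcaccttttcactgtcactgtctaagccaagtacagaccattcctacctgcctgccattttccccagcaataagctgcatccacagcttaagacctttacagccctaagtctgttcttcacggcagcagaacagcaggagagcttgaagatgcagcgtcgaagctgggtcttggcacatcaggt

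The genes of activation, transport and corepression did not pass the litter test. Dio2, on chr12:90724552-90738438, minus strand, was counted 102 to 222 times and had 8.91, 7.03, 7.85 and 7.26 TMM-scaled CPM in the males of litters 1 to 4 and 7.32, 5.44, 7.02 and 4.74 in the females. The male was above the female in all 4 litters, by 0.28, 0.36, 0.16 and 0.60 on the log2 scale, and the sexes overlapped through the female of litter 1, which at 7.32 exceeded the males of litters 2 and 4. Its log2 range between litters was 0.45 (adjusted p = 0.109).

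Slc16a10, on chr10:40033532-40142258, minus strand, was the steadiest of the 8, with a coefficient of variation of 6.69% over the 8 libraries against 40.3% for Rxrg. It had 44.4 TMM-scaled CPM in the male of litter 1 and between 36.4 and 38.7 in the other 7. The litter test gave a log2 range of 0.17 (adjusted p = 0.415), which was 0.04 with litter 1's male left out and 0.30 with its female left out (adjusted p = 0.977 and 0.227).

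Ncor1, on chr11:62316426-62458541, minus strand, had 164, 155, 162 and 133 TMM-scaled CPM in the males and 157, 167, 144 and 139.8 in the females. Both libraries of litter 4 were the lowest. The contrast of litter 4 was -0.21 (SE 0.07, adjusted p = 0.0628) and the litter test gave a log2 range of 0.24 (adjusted p = 0.0977). With library size alone as the scaling both passed, at adjusted p-values of 0.0179 and 0.0319. The contrast also passed without a filter (0.0334) and at a mean of at least 50 counts (0.0498). Library size alone lowered the median of all genes in litter 4 by 0.08.

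No member passed the test between the sexes. In edgeR's quasi-likelihood test 0 of 8 passed, with 0 at an unadjusted p under 0.05 and 0 in DESeq2. Of all genes 0.0436% passed in edgeR and 2.22% had an unadjusted p under 0.05. The largest differences, male minus female, were 0.37 for Thrb (SE 0.19, 95% interval -0.06 to 0.79) and 0.34 for Dio2 (SE 0.17, interval -0.03 to 0.72), with adjusted p-values of 1.00. Thrb had 5.34 ± 1.04 TMM-scaled CPM in males and 4.14 ± 0.689 in females (SD, n = 4), and Dio2 had 7.76 ± 0.841 and 6.13 ± 1.24. Both were higher in the male of 4 of 4 litters. Thra had a difference of -0.08 (interval -0.30 to 0.15), Rxra -0.02 (interval -0.29 to 0.26), Rxrb -0.06 (interval -0.29 to 0.17), Slc16a10 0.02 (interval -0.16 to 0.21) and Ncor1 0.02 (interval -0.19 to 0.22). Rxrg had the widest interval, -0.98 to 0.70 around -0.14 (SE 0.38). With litter as a block 0 of 8 passed while 0.211% of all genes did. Dio2 then differed by 0.35 (SE 0.12, edgeR adjusted p = 0.307) and Thrb by 0.36 (SE 0.14, adjusted p = 0.372), the 2 members with an unadjusted p under 0.05, as 11.6% of all genes had.

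**Figure D3:**
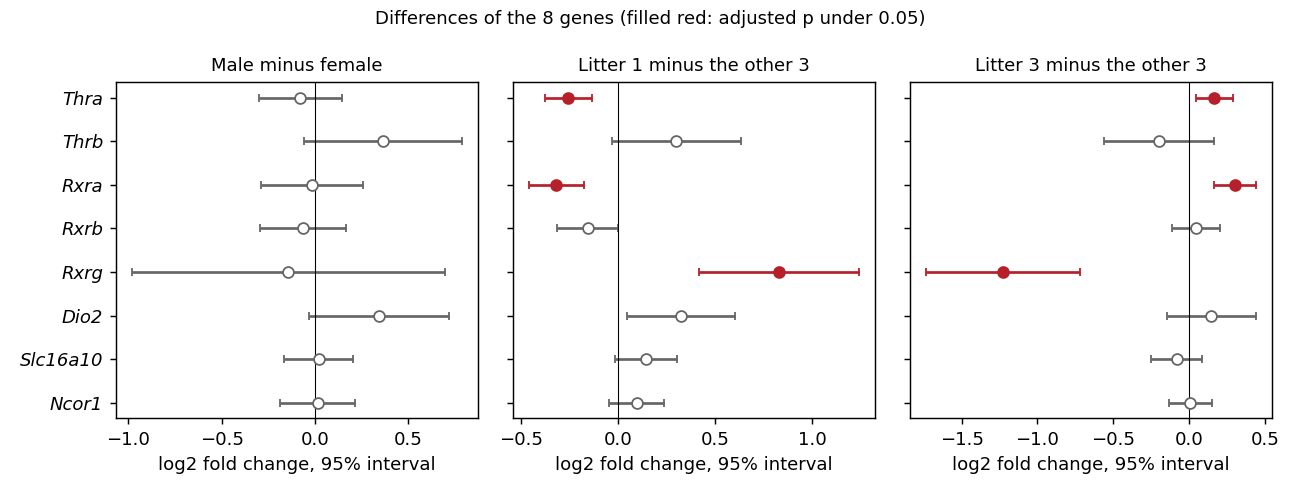
Log2 fold change of each of the 8 genes with its 95% interval for males minus females, litter 1 minus the other 3 litters and litter 3 minus the other 3; the panels have different horizontal scales, and filled red points have an adjusted p under 0.05. No gene is red for sex, and Thra, Rxra and Rxrg are red in both litter panels with opposite signs.

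Across the 8 libraries Rxra and Rxrg ran against each other (Pearson r = -0.86 on log2 CPM) and Thra ran with Rxra (r = 0.87). The pair with the largest r in size was Rxrb and Ncor1 (r = -0.94). These values describe 8 libraries from 4 litters that share their litter effects and scaling. By the same measure the 3 genes most like Thra among 11157 genes with a mean of at least 50 counts were Ccbl1 (r = 0.99), Arap1 (0.98) and Zfp219 (0.98). For Rxra they were Dnajb12 (0.99), Mfsd7c (0.98) and Ccndbp1 (0.98), and for Rxrg Gpt (0.99), Rbm28 (0.99) and L3mbtl2 (0.98). Gpt, which encodes alanine aminotransferase, had litter means of 18.7, 16.9, 9.71 and 14.8 TMM-scaled CPM in litters 1 to 4, where those of Rxrg were 5.82, 4.72, 2.00 and 3.79.

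Genes known to respond to T3 were read beside the receptors. The gene lists here and below were chosen with earlier results of these data known, so their shares are descriptions and not tests. Of 13 genes known to be raised by T3, 5 were lower (38.5%) and 1 was higher in litter 3, where 14.8% of all genes were lower and 13.6% higher, and the median log2 fold change was -0.25 against 0.00 for all genes. In the same litter 6 of 7 fibroblast, 5 of 6 endothelial and 3 of 5 mural markers were lower, and the cardiomyocyte and ventricular sums were the lowest of the 8 libraries. The cardiomyocyte list holds Myh6 and Pln, which also stand in the T3 lists. Its median log2 fold change was -0.02, and that of the ventricular list was -0.03. The part of these shifts in the values of the T3 genes was not tested. Myh6, the fast myosin heavy chain, had 16924 and 16097 TMM-scaled CPM in the male and female of litter 3 and 20391 to 29074 in the other 6 libraries (-0.61, SE 0.09, edgeR adjusted p = 0.000622). Hcn2, a pacemaker channel gene, had 5.38 and 5.16 against 8.43 to 14.4 (-1.09, SE 0.13, adjusted p = 0.000102). Slc2a4, the insulin-responsive glucose transporter, had 82.0 and 112 against 135 to 153 (-0.59, SE 0.08, adjusted p = 0.000376). Both libraries of litter 3 lay below all others for these 3 genes.

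Atp2a2, the calcium pump, fell by 0.25 in litter 3 (SE 0.06, adjusted p = 0.0139). Hr, which encodes a corepressor induced by T3 in brain, fell by 2.01 (SE 0.46, adjusted p = 0.00748) at 0.564 and 0.826 TMM-scaled CPM against 1.06 to 4.24. Adrb1, the main cardiac beta adrenergic receptor, was the 1 gene that rose, by 0.35 (SE 0.08, adjusted p = 0.00545). The remaining 7 did not pass: Hcn4 had -0.52, Kcna5 -0.75, Kcnd2 -0.08, Ucp3 0.18, Me1 0.00, Thrsp 0.15 and Klf9 0.17. Klf9 and Thrsp, T3 targets in many tissues, were thus not among the genes that moved. Without the female of litter 3 the count of 5 was 3 and the median -0.08. Atp2a2 lost its call without the male of litter 1 (0.0589), litter 1 (0.0720), or the male (0.0704) or female (0.143) of litter 3, Hr without the male (0.0680) or the female (0.0527) of litter 3, and Adrb1 without the male of litter 3 (0.117).

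Of 4 genes known to be lowered by T3, 2 were higher in litter 3 and 0 lower, where 13.6% of all genes were higher and 14.8% lower. Myh7, the slow myosin heavy chain, had 5598 and 3890 TMM-scaled CPM in the male and female of litter 3 and 378 to 1861 in the other 6 (2.74, SE 0.08, edgeR adjusted p = 5.13e-09). Slc8a1, the sodium-calcium exchanger, had litter means of 473, 404, 440 and 307 TMM-scaled CPM in litters 1 to 4. It was also called higher in litter 1 and lower in litter 4. Against the mean of the others it had 0.18 in litter 3 (SE 0.06, edgeR adjusted p = 0.0384), a call that held in 4 of 11 fits that left out a library or a litter. It was lost without the male of litter 1 (0.125), the female of litter 1 (0.0559), the female of litter 2 (0.0757), the male (0.328) or female (0.106) of litter 3, the male of litter 4 (0.0544) or litter 4 (0.880, log2 fold change 0.01). Pln and Adcy5 had 0.11 and -0.20 and did not pass. By sex 0 of the 17 T3 genes passed without the litter block, with 0 at an unadjusted p under 0.05 in edgeR. With the block Slc8a1 was higher in males by 0.29 (SE 0.05, adjusted p = 0.0466), where 0.211% of all genes passed. The lists hold genes that also depend on other signals, so their values are no measure of hormone level.

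**Figure D4:**
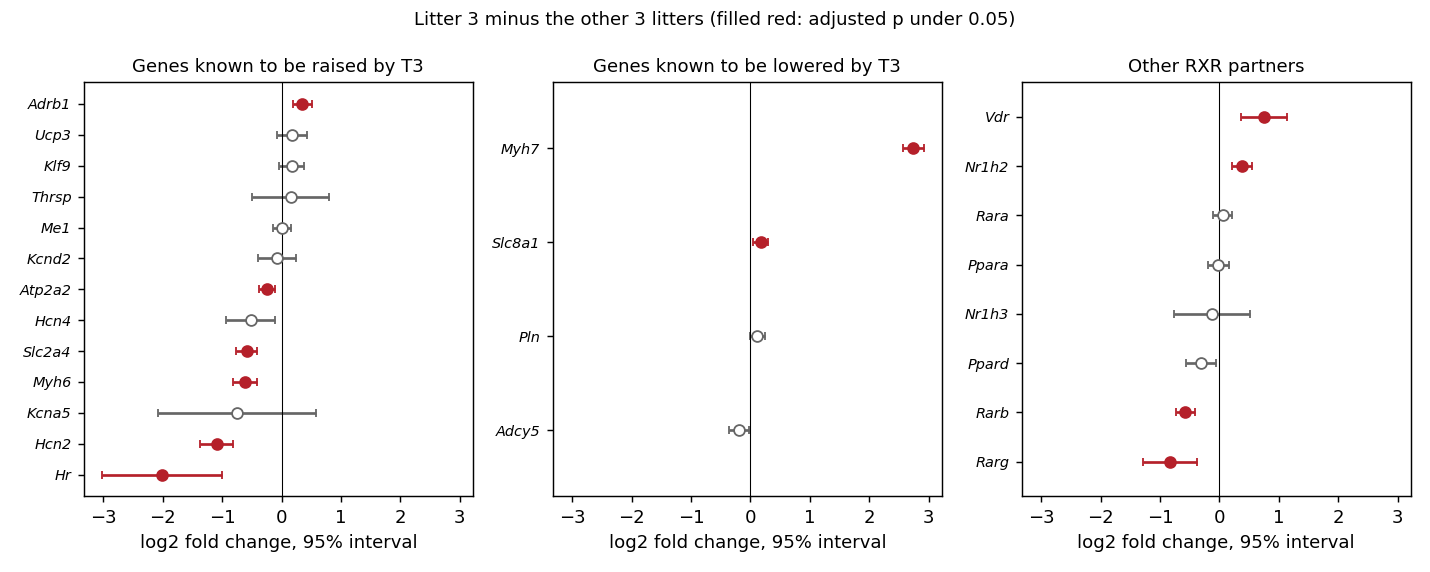
Log2 fold change with 95% interval of litter 3 minus the other 3 litters for genes known to be raised by T3, genes known to be lowered by T3 and other dimer partners of RXR; filled red points have an adjusted p under 0.05. Hr, Hcn2, Myh6, Slc2a4 and Atp2a2 lie below 0 and Myh7 far above it, and of the RXR partners Rarb and Rarg lie below and Nr1h2 and Vdr above.

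RXR serves other receptors too, and in litter 3 their genes moved both ways, with 2 of 8 lower and 2 higher where 14.8% and 13.6% of all genes were. The median log2 fold change of the 8 was -0.07. Of these 8 tested partners of 9, Rarb and Rarg, which encode retinoic acid receptors, were lower, and Nr1h2 and Vdr, which encode the liver X receptor beta and the vitamin D receptor, were higher. Rarb had 22.0 and 20.2 TMM-scaled CPM in the male and female of litter 3 against 28.9 to 34.3 in the other 6 (-0.58, SE 0.07, edgeR adjusted p = 0.000187). Nr1h2 had 53.4 and 56.0 against 35.6 to 49.3 (0.38, SE 0.08, adjusted p = 0.00376). Rarg fell by 0.83 (SE 0.21, adjusted p = 0.0115) and Vdr rose by 0.74 (SE 0.18, adjusted p = 0.00875). Without the female of litter 3, Rarg (0.176), Nr1h2 (0.0574) and Vdr (0.195) lost their calls and Rarb kept it. Rara, the remaining retinoic acid receptor gene, had 0.06, and Ppara, a regulator of fatty acid oxidation, had -0.02.

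Among genes of retinoid supply, Aldh1a2, which encodes a retinoic acid synthesising enzyme typical of epicardial cells, had 3 and 4 counts in the male and female of litter 3 and 10 to 29 in the other 6. It was lower in litter 3 (-2.01, SE 0.49, edgeR adjusted p = 0.00967) and lost that call without the male of litter 3 (0.221). The 4 epicardial markers summed to 23.4 CPM in both libraries of litter 3 against 12.3 to 17.8 CPM in the others, with 1 higher, 1 lower and a median log2 fold change of -0.46. That sum was mostly Tbx18, which had 493 and 306 counts in litter 3, while the other 3 markers had 7 to 15. The fibroblast sums stand with the results on Rxra and Rxrg. Stra6 had 0 counts in all 8 libraries.

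Other deiodinases were not detected at this depth. Dio1 and Dio3, the deiodinases that activate or inactivate hormone elsewhere, had 0 counts in every library, which allows up to 0.211 CPM in the shallowest library and 0.120 CPM in the deepest, and Crym, a T3 binding protein gene, had 0 to 2 counts. Slc7a8, an amino acid and T3 carrier gene, had 7.81 and 8.05 TMM-scaled CPM in the male and female of litter 3 against 3.45 to 5.31 in the other 6 (0.89, SE 0.14, edgeR adjusted p = 0.000911).

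Of the partners of Ncor1 in the corepressor complex, 0 of 5 passed in litter 3 in edgeR, with 1 at an unadjusted p under 0.05, where 39.9% of all genes were. Gps2 alone passed the litter test (log2 range 0.37, edgeR adjusted p = 0.0389), and did not in DESeq2 (0.137), with library size alone (0.0530), or in 8 of 12 fits with a library or litter left out, where adjusted p ran up to 0.247. Of 8 coactivator genes, 3 were higher in litter 3 and 0 lower, where 13.6% of all genes were higher and 14.8% lower. Their median log2 fold change was 0.02. Ncoa2 rose by 0.39 (SE 0.06, edgeR adjusted p = 0.000553), Ep300 by 0.31 (SE 0.07, adjusted p = 0.00643) and Crebbp by 0.19 (SE 0.06, adjusted p = 0.0373). The count was 1 without the male of litter 3, where Ep300 had 0.201 and Crebbp 0.102. It was 2, with Crebbp lost at adjusted p from 0.0504 to 0.332, when a library of litter 1, the female of litter 2, the female of litter 3, the male of litter 4, litter 1 or litter 4 was left out. Over the 8 lists 22 of 49 tested genes passed the litter test, or 44.9% against 32.1% of all genes, and 0 passed by sex without the block. Since the lists were chosen with earlier results of these data known, the 44.9% is no test of them.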

How the data were processed

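The deposited file holds raw counts, 1 column per sample, in 48440 entries named by gene symbol, where 2 names stand on more than 1 entry. Per the labels' protocols, libraries were made from 1 µg of total RNA with a stranded kit and read as single ends of 100 bases, while the molecule is entered as poly(A) RNA. Per the submitters' processing notes, STAR 2.7.3a and mm10 were used. The counting program, annotation and strand setting are not given in the sources used here.

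Genes were filtered with filterByExpr on sex (13771 kept) and scaled by TMM. Tests were edgeR 4.0.16 quasi-likelihood F tests in R 4.3.3 with Benjamini-Hochberg adjustment over all tested genes at a threshold of 0.05, where SE is the log2 fold change over the square root of F. Sex was tested without a litter term. Litter was tested with sex in the model, over all 3 coefficients and as each litter against the mean of the others, with 3 residual degrees of freedom. Alternatives were DESeq2 1.42.0, other scalings and filters, a litter block, and leaving out each library or litter. The log2 CPM used for r had a prior count of 2. Scripts were tested on simulated counts.

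Gene positions, lengths and exon overlaps came from GENCODE M21 on GRCm38, and promoters from RefSeq. Of 100-base windows of the longest transcript, 7.22% of those of Thra also occur in Nr1d1, 0.0175% of those of Dio2 in Gm26512, and 0% for the other 6 genes. The members and gene lists were chosen with earlier results of these data known. Named genes were the 8 members, list genes past the threshold, all tested T3 genes, genes overlapping a member and the 3 most alike genes. The labels' litter number pairs the sexes: once each sex's mean was subtracted, r across genes was 0.367 to 0.696 within litters and -0.482 to 0.27 between litters. P-values of the sex test without the block measure the spread between hearts of the same sex from 4 litters. Those of the litter tests and of the blocked sex test rest on how the male-female difference varies between litters. The spread between litters is not the error of a litter test. No column belonged to another series. Results on some genes of the lists are not reported here.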

Additional observations from a re-analysis of the deposited data

Results flagged for a closer look

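Each group of 4 libraries of a sex was checked for a library far outside the other 3, for the 8 members, the T3 genes and the mitochondrial share. This gave 3 of 52 groups, where chance gives about 2.6; the groups share libraries. For Slc16a10 litter 1's male had 44.4 TMM-scaled CPM, with the other males at 36.4 to 37.2. Atp2a2 stood at 7881 TMM-scaled CPM in the female of litter 3 against 9389 to 9604 in the other females. The mitochondrial share of counts reached 18.5% for litter 4's male, with other males at 14.2% to 14.7%. With mitochondrial genes left out, 3 members passed the litter test, as before.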

How the results depend on the processing

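Thra, Rxra and Rxrg passed the test over all litters under each scaling, filter and tool tried, while the litter 3 contrast of Thra was lost without a filter (edgeR adjusted p = 0.0507), and 0 members passed by sex under each, the replicate block of litter included, which raised the count over all genes from 6 to 29 and changed no member's call. For litter 2 the count over all genes was 1249 without a filter and 345 at a mean of at least 50 counts, against 575. For litter 4, members passing rose from 0 to 1 with library size alone (Ncor1), 2 without a filter and 1 at a mean of at least 50 counts. With library size alone the litter 2 contrast of Slc16a10 turned from -0.02 to 0.010 and the litter 4 contrast of Rxra from 0.07 to -0.0041, neither past the threshold.

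Leaving out libraries or litters gave 5 to 8 genes by sex with 0 members, and 1898 to 4586 genes with 1 to 4 members for the litter test. The contrasts ranged from 359 to 2906 genes with 0 to 4 members (litter 1), 153 to 1407 with 0 to 1 (litter 2), 1704 to 4177 with 1 to 3 (litter 3) and 322 to 1984 with 0 to 3 (litter 4). Signs of uncalled values turned: by sex Rxra ran from -0.10 to 0.065, Rxrg from -0.51 to 0.077, Slc16a10 from -0.051 to 0.051 and Ncor1 from -0.043 to 0.072. In litter 2 Thra ran from -0.14 to 0.018, Rxra from -0.18 to 0.049, Rxrg from -0.012 to 0.76 and Slc16a10 from -0.069 to 0.034. In litter 3 Rxrb ran from -0.089 to 0.18 and Ncor1 from -0.10 to 0.10, and in litter 4 Rxra from -0.038 to 0.20, Rxrg from -0.46 to 0.29 and Slc16a10 from -0.10 to 0.0080. The called contrast of Myh7 in litter 4 (0.52) ran from -0.17 without litter 1 to 1.62 without litter 3. Its reference is the mean of the other litters left in. The litter means of Myh7 were 394, 588, 4744 and 1509 TMM-scaled CPM in litters 1 to 4.

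Levels in CPM per kilobase with the longest transcript were 97.8 for Thra, 22.5 for Rxrb, 7.10 for Slc16a10 and 16.9 for Ncor1. With mitochondrial genes out of the total they were 61.1 for Thra, 14.4 for Rxra, 17.5 for Rxrb, 6.12 for Slc16a10 and 14.01 for Ncor1, and the order was the same. Thrb, Rxrg and Dio2, with 29 to 222 counts per library, are the members whose precision depth limits most.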
